A study of Mus musculus with 6 samples.

Results

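The 8 mouse genes that encode the subunits of troponin were followed by symbol in a table of read counts for 44792 genes. They are Tnni3, Tnni1 and Tnni2 for troponin I, Tnnt2, Tnnt1 and Tnnt3 for troponin T, and Tnnc1 and Tnnc2 for troponin C. RNA was sequenced from the hearts of C57BL/6 mice aged 3 months. A group of 3 mice carried R193H, a change of 1 arginine of cardiac troponin I (cTnI) to histidine, and a group of 3 mice was wild type. Each heart gave 1 library. The sources used here do not say how the R193H allele was made, nor give its zygosity, the sex of the mice or the part of the heart taken.

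Troponin is the calcium switch of striated muscle. Troponin C binds calcium, troponin I holds the actin filament in its blocked state when calcium is low, and troponin T anchors the complex to tropomyosin. Each subunit has separate genes for the cardiac, slow skeletal and fast skeletal forms, except that Tnnc1 serves both heart and slow skeletal muscle. Tnni1 is the main troponin I gene of the fetal heart and is replaced by Tnni3 after birth. In humans, the matching arginine-to-histidine change in TNNI3 is a known cause of restrictive cardiomyopathy, in which the ventricle relaxes poorly.

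The Tnni3 codon that R193H changes, at the position that the name gives when the start codon is counted as 1, is shown first because it is the site that defines the mutant group. In the GENCODE annotation of GRCm38 it lies at chr7:4518425-4518427 on the minus strand, in exon 8 of 8, the last coding exon, with 18 codons after it. The wild type reference sequence around it is given with the aligned stretches of Tnni1 and Tnni2, each as 63 bases of spliced transcript, 5′ to 3′, with the arginine codon in capitals.
Tnni3: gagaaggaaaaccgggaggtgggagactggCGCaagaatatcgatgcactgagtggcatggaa
Tnni1: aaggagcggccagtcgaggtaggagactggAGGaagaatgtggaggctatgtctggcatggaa
Tnni2: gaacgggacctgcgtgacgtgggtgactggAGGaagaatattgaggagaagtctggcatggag
All 3 genes have an arginine codon there, CGC in Tnni3 and AGG at codon 162 of both Tnni1 (chr1:135809653-135809655, plus strand, exon 8 of 9) and Tnni2 (chr7:142444245-142444247, plus strand, exon 7 of 7). Each pair of these stretches was identical at 42 of 63 bases. Counts per gene do not show which base a read carried, so the counts check the level of Tnni3 and not the substitution.

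The libraries held 19582600 to 21852210 counts in R193H hearts and 14736067 to 20652534 in wild type hearts. Troponin genes took 1.17% to 1.21% of all counts in R193H hearts and 1.12% to 1.16% in wild type hearts. Genes of the mitochondrial genome took 30.9% to 35.4% of counts in R193H hearts, against 36.7% to 36.8% in wild type hearts, which moves every other gene's share of the library. Levels are therefore given as CPM, the count scaled to a common library size after correction of the totals by edgeR's trimmed mean of M values (TMM), and per kilobase of transcript where genes are compared with each other.

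The hearts used the cardiac set of subunits almost alone. Per kilobase of transcript, Tnnt2 averaged 4969 ± 278 CPM per kb in R193H hearts and 5758 ± 184 in wild type hearts (SD, n = 3 each), the fourth highest level among 20118 nuclear genes with a length. Tnni3 was the fifth highest, at 4110 ± 149 CPM per kb in R193H hearts and 3637 ± 149 in wild type hearts. Tnnc1 was the ninth, at 2260 ± 189 CPM per kb in R193H hearts and 2349 ± 71.1 in wild type hearts. Tnnt1, the slow skeletal troponin T gene, was the highest of the others, at 8.82 ± 1.66 CPM per kb in R193H hearts and 12.6 ± 1.02 in wild type hearts. Below it, in order of the mean over all hearts, came Tnni2, Tnni1, Tnnt3 and Tnnc2, from 1.41 to 0.109 CPM per kb in R193H hearts and from 1.24 to 0.0915 in wild type hearts. Tnni1 and Tnnt3, neighbours in that order, overlapped between hearts, and the ranges of Tnni1 and Tnni2 overlapped through R193H replicate 2 alone. Within the cardiac set, the order Tnnt2, Tnni3, Tnnc1 was the same in each of the 6 hearts.

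**Figure D1:**
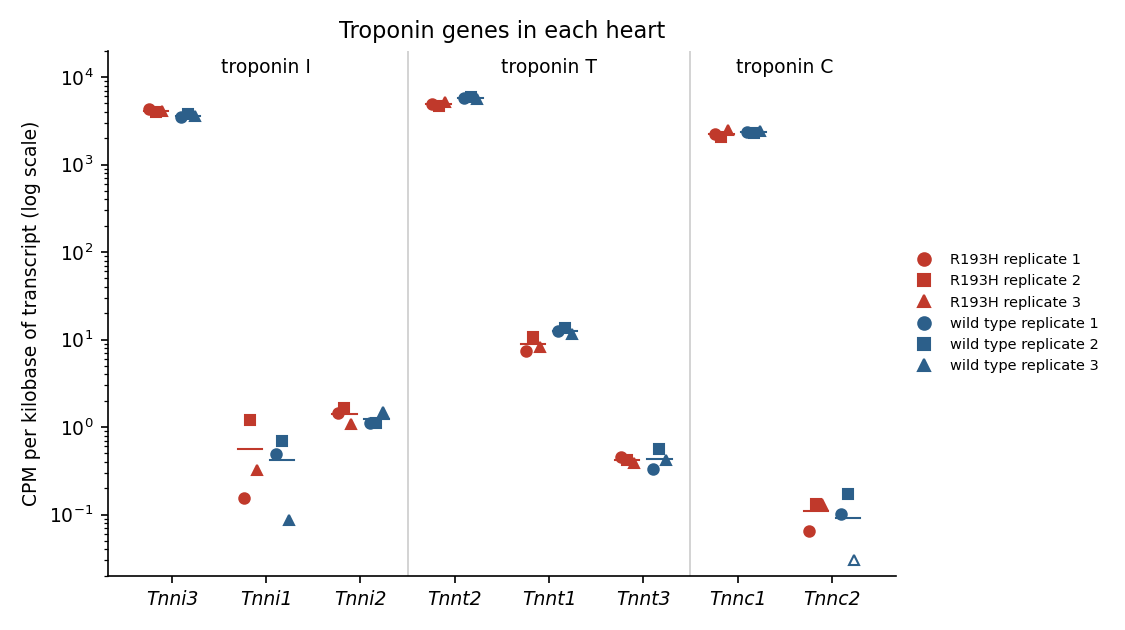
Level of the 8 troponin genes in each heart, in CPM per kilobase of transcript on a log scale, with R193H hearts in red and wild type hearts in blue and a short line at each group mean. The cardiac genes Tnni3, Tnnt2 and Tnnc1 lie far above the others, of which Tnnt1 is the highest; the open triangle for Tnnc2 marks the wild type heart with 0 counts, drawn at the foot of the axis.

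The comparison of genotypes asked which genes differ between R193H and wild type hearts. Of the 8 troponin genes, 7 passed the filter on low counts and 0 were called at an adjusted p under 0.05 by edgeR's quasi-likelihood test, in a fit where 1 of 14370 genes, 0.00696%, was called. At an unadjusted p under 0.05 it found 2 of the 7, Tnnt1 and Tnnt2, both lower in R193H hearts, where 5.73% of all genes passed. DESeq2 and limma-voom also called 0 of them. The groups of hearts did not overlap for Tnni3 on the higher side, where 6.02% of all tested genes lay, or for Tnnt2 and Tnnt1 on the lower side, where 5.8% lay. In bulk heart tissue, fewer cells of a type and less RNA per cell cannot be told apart.

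Tnni3, the gene that carries the substitution, had 3900.2, 3641 and 3703 CPM in R193H hearts, against 3202, 3466 and 3282 CPM in wild type hearts. The lowest R193H heart was thus above the highest wild type heart. The means were 3748 ± 135 CPM in R193H hearts and 3317 ± 136 CPM in wild type hearts (SD, n = 3 each), a log2 fold change of 0.18 with a standard error of 0.080 and a 95% interval of -0.0027 to 0.36. This did not pass edgeR's test (adjusted p = 0.863).

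Tnnt2, which ties the complex to tropomyosin in heart muscle, had 5940 CPM, 5641 CPM and 6307 CPM in R193H hearts, against 6834, 7158 and 6736 CPM in wild type hearts. Every R193H heart was below every wild type heart, the opposite order to that of Tnni3. The means were 5963 ± 333 CPM in R193H hearts and 6909 ± 221 CPM in wild type hearts, a log2 fold change of -0.21 with a standard error of 0.082 and a 95% interval of -0.40 to -0.029 (edgeR adjusted p = 0.794).

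Tnnc1, the calcium sensor, had 1616, 1500.1 and 1772 CPM in R193H hearts, against 1678, 1652 and 1751 CPM in wild type hearts. The R193H hearts held both the lowest and the highest of these values. Its log2 fold change was -0.056 with a standard error of 0.088 and a 95% interval of -0.25 to 0.14 (edgeR adjusted p = 0.947), and its sign turned with scaling to library totals, where it was 0.067.

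The 3 cardiac genes together had 11456, 10782 and 11782 CPM in R193H hearts, against 11714, 12276 and 11770 CPM in wild type hearts. R193H replicate 3 lay within the wild type range and the other R193H hearts below it. The difference was -580 CPM in an exact two-sided permutation test over hearts (p = 0.3, where 3 hearts against 3 allow no p under 0.1), and -278 CPM without R193H replicate 2. Library totals in place of TMM factors shifted the median log2 fold change of all genes by 0.13. With them the difference was 429 CPM in the other direction (exact permutation p = 0.1). With upper quartile scaling it was -554 CPM (exact permutation p = 0.1). The smallest p the design allows was thus reached in opposite directions, depending on the scaling.

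A ratio of counts of a pair of genes within a heart does not depend on how libraries are scaled. The ratio of Tnni3 to Tnnt2 counts was 0.657, 0.645 and 0.587 in R193H hearts, against 0.469, 0.484 and 0.487 in wild type hearts. All R193H hearts were above all wild type hearts, with a gap between the groups wider than the spread within either of them. On the log2 scale the difference was 0.39, with p = 0.1 in the exact two-sided permutation test, the smallest p the design allows. This p was fixed by the separate levels, since every R193H heart was higher for Tnni3 and lower for Tnnt2. When every tested gene was set against Tnnt2 in the same way in limma, Tnni3 had the ninth smallest p of 14369 genes. The standard error was 0.068 and the adjusted p 0.162, so the ratio did not pass over all genes. Tnnt2 was itself lower in R193H hearts, and with Tnnc1 as the reference Tnni3 came in place 454. Leaving out any heart in turn kept the difference in the ratio of Tnni3 to Tnnt2 between 0.36 and 0.44.

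Ratios to Tnnc1 split this difference between the other subunits. The ratio of Tnnt2 to Tnnc1 counts was 3.67, 3.76 and 3.56 in R193H hearts, against 4.07, 4.33 and 3.85 in wild type hearts, a log2 difference of -0.15 (exact permutation p = 0.1; limma adjusted p = 0.989). These groups did not overlap. The ratio of Tnni3 to Tnnc1 was 2.41, 2.43 and 2.09 in R193H hearts, against 1.91, 2.10 and 1.87 in wild type hearts, a log2 difference of 0.24 (exact permutation p = 0.2; limma adjusted p = 0.989). Here R193H replicate 3 lay just below wild type replicate 2, so the groups overlapped. Per kilobase, Tnnt2 stood at 1.21 times the level of Tnni3 in R193H hearts and at 1.58 times in wild type hearts.

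**Figure D2:**
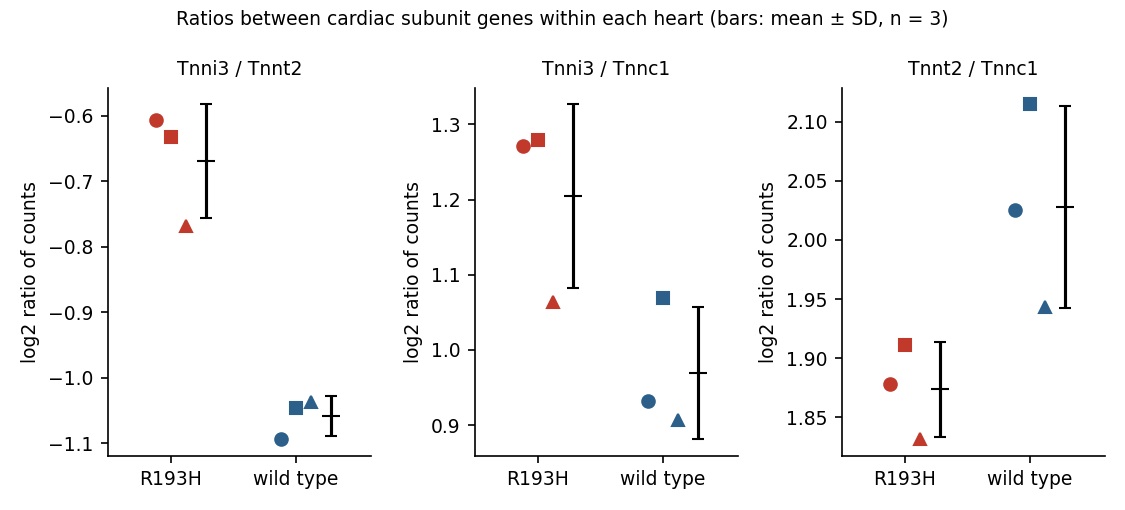
Log2 ratio of counts between pairs of cardiac subunit genes within each heart, with R193H hearts on the left in red, wild type hearts on the right in blue, and the mean ± SD of 3 hearts as a black bar; circles, squares and triangles are replicates 1, 2 and 3, and the vertical axes do not start at 0. Tnni3 over Tnnt2 lies between -0.77 and -0.61 in R193H hearts and between -1.09 and -1.04 in wild type hearts.

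The cardiac genes were also set against the summed counts of 12 genes of ventricular muscle, among them Myh6, the main adult myosin heavy chain, and Myl2, the ventricular regulatory light chain. After TMM scaling, these 12 genes summed to 58362 to 62722 CPM in R193H hearts and 63899 to 66489 CPM in wild type hearts, without overlap. That gap depends on the TMM factors, since library totals shifted the median log2 fold change of all genes to 0.13. The sums were not compared with library totals. Relative to these 12 genes, Tnni3 was higher in every R193H heart than in any wild type heart, with a log2 difference of 0.26 (exact permutation p = 0.1). Given the TMM-scaled values, this separation was forced, because in every R193H heart these 12 genes summed lower and Tnni3 was higher. Relative to the same genes, Tnnt2 was lower in every R193H heart, with a log2 difference of -0.13 (exact permutation p = 0.1). Tnnc1 differed by 0.029 (exact permutation p = 0.7). Macrophage markers summed to 435 to 625 CPM in R193H hearts, against 361 to 428 CPM in wild type hearts, and 9 of 9 tested had a higher mean in R193H hearts, 6 of them at an unadjusted p under 0.05. Over all 14370 genes tested, 7174 had a higher and 7196 a lower mean in R193H hearts, with 463 higher and 361 lower at an unadjusted p under 0.05. All 9 fibroblast and 8 endothelial markers also had a higher mean in R193H hearts, with 0 of them past an unadjusted p of 0.05 in edgeR. Erythroid markers had a lower mean in R193H hearts for 6 of 6 tested, with a median log2 fold change of -1.94, and summed to 496 to 650 CPM in R193H hearts, against 3137, 274 and 3012 CPM in wild type hearts. The part of cell makeup in the troponin values was not tested.

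Tnnt1, the slow skeletal troponin T gene, had the smallest p of the troponin genes. It had 176, 247 and 189 counts in R193H hearts, against 187, 238 and 245 counts in wild type hearts. After scaling these were 7.91, 11.3 and 8.80 CPM in R193H hearts and 13.3, 14.4 and 12.3 CPM in wild type hearts, and the groups did not overlap. The log2 fold change was -0.51 with a standard error of 0.15 and a 95% interval of -0.85 to -0.17, which did not pass over all genes (edgeR adjusted p = 0.722). It was -0.67 without R193H replicate 2, the R193H heart nearest to the wild type hearts. Tnnt1 lies next to Tnni3, 1922 bp downstream on the same strand of chromosome 7. The ratio of Tnnt1 to Tnni3 counts differed by -0.70 on the log2 scale (exact permutation p = 0.1). That ratio had to separate the groups, because Tnnt1 was lower and Tnni3 higher in every R193H heart, so its p is no further result.

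Tnni1, the fetal troponin I gene, had 4, 30 and 8 counts in R193H hearts, against 8, 13 and 2 counts in wild type hearts. R193H replicate 2 alone held more than the other R193H hearts together, and the groups overlapped. The log2 fold change was 0.45 with a standard error of 0.86 (edgeR adjusted p = 0.957), and it was -0.75 without R193H replicate 2, so that 1 heart set its direction.

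Some genes of the atria were high in the same hearts as Tnni1. Myl7, the atrial regulatory light chain, had 190, 1357 and 62 counts in R193H hearts, against 1044, 891 and 8 counts in wild type hearts. Sln, which encodes the atrial calcium pump inhibitor sarcolipin, had 78, 590 and 42 counts in R193H hearts, against 576, 419 and 2 counts in wild type hearts. The 3 hearts with the most Tnni1 CPM, R193H replicate 2 and wild type replicates 1 and 2, were the 3 with the most Myl7 and Sln CPM. Wild type replicate 3 was lowest for all 3 genes. For Tnni1, wild type replicate 1 and R193H replicate 3 both had 8 counts. Scaling to library size alone set them apart, at 0.568 and 0.373 CPM, so the match of the 3 highest hearts rests on a tie in counts. Myl7 and Sln were chosen from the list of 10 atrial markers after their values were seen. Over that list, 5 markers (Myl7, Sln, Dkk3, Mybphl and Bmp10) had the same 3 highest hearts as Tnni1, while Nppa, Myl4, Myh7b and Gpr22 did not. The share of all genes with these 3 highest hearts is not given here, so whether 5 of 10 is unusual was not tested. Nppa, which encodes atrial natriuretic peptide, had 120, 151 and 180 CPM in R193H hearts, against 510, 198 and 80.0 CPM in wild type hearts. The summed CPM of the list was 211, 370 and 238 in R193H hearts, against 810, 412 and 147 in wild type hearts, so that R193H replicate 2, the heart with the most Tnni1, was not the highest. Bmp10 had 0 counts in R193H replicate 1 and wild type replicate 3. Tbx5, a cardiac transcription factor, is listed at 0 in every heart, which cannot be read here as absence of its transcript. Tnnt1 had 12.3 CPM in wild type replicate 3, above every R193H heart, with Myl7 at 0.401 CPM there, while within each genotype the heart with the most Tnni1 also had the most Tnnt1. The part of atrial tissue in the Tnni1 and Tnnt1 values was not tested.

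**Figure D3:**
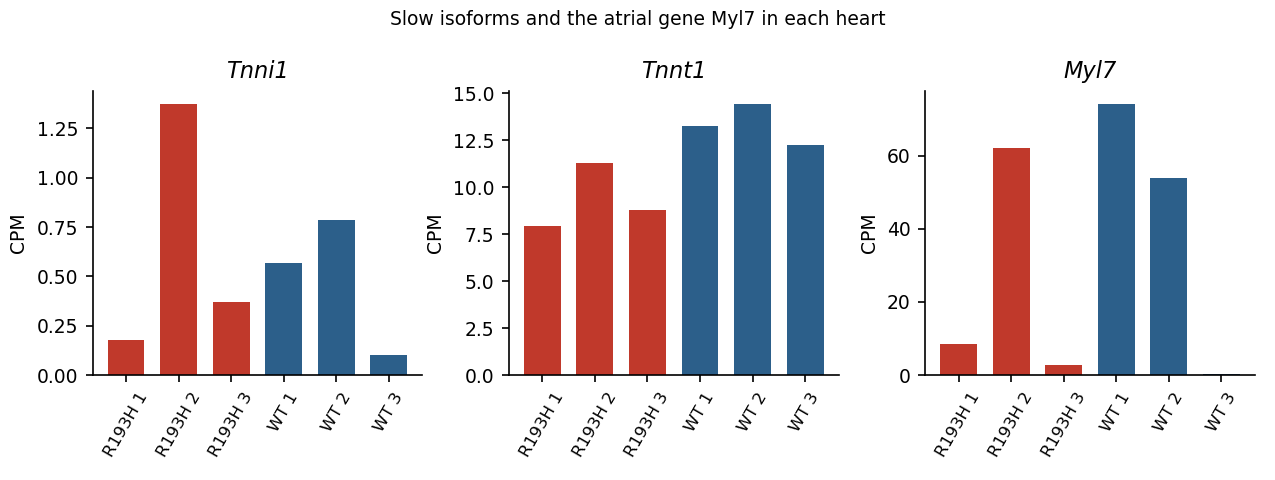
CPM of the slow isoform genes Tnni1 and Tnnt1 and of the atrial gene Myl7 in each of the 6 hearts, R193H hearts in red on the left and wild type (WT) hearts in blue on the right, numbered by replicate. Tnni1 and Myl7 are highest in R193H replicate 2 and wild type replicates 1 and 2, though wild type replicate 1 and R193H replicate 3 have equal Tnni1 counts. Tnnt1 is above 12 CPM in each wild type heart and below it in each R193H heart.

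The fast skeletal genes had few counts. Tnni2 had 25, 28 and 18 counts in R193H hearts, against 12, 14 and 23 counts in wild type hearts, with a log2 fold change of 0.17 and a standard error of 0.34 (edgeR adjusted p = 0.957). It was 0.037 without R193H replicate 2 and 0.34 without wild type replicate 3. Tnnt3 had 11, 10 and 9 counts in R193H hearts, against 5, 10 and 9 counts in wild type hearts (log2 fold change -0.049, standard error 0.44, edgeR adjusted p = 0.993). Both sets of groups overlapped. Tnnc2 had 1, 2 and 2 counts in R193H hearts, against 1, 2 and 0 counts in wild type hearts, too few to test. Among other genes of fast skeletal muscle, Mylpf, the fast regulatory light chain, had 9 to 26 counts, and Myh4, the fast IIB myosin heavy chain, is listed at 0 in every heart. Others of that list were well above Tnni2 and Tnnt3, among them Mybpc2, fast myosin binding protein C, with 324 to 847 counts in R193H hearts and 242 to 676 in wild type hearts. The 14 fast skeletal markers together summed to 39.1 to 76.6 CPM in R193H hearts and 59.0 to 67.9 CPM in wild type hearts.

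Within each subunit, the cardiac gene took nearly all counts in both genotypes. Tnni3 took 99.954% ± 0.023 of troponin I counts in R193H hearts and 99.957% ± 0.0046 in wild type hearts (SD, n = 3 each). The Tnni1 share was 0.00461%, 0.0377% and 0.0101% in R193H hearts, against 0.0177%, 0.0227% and 0.00305% in wild type hearts (exact permutation p = 0.8). The Tnni2 share was 0.0288%, 0.0352% and 0.0226% in R193H hearts, against 0.0266%, 0.0245% and 0.0351% in wild type hearts (exact permutation p = 0.9). Neither share separated the genotypes, and the Wilson 95% interval of the Tnni1 share in R193H replicate 2, 0.0264% to 0.0538%, lay above those of the other R193H hearts. Intervals cover counting error only.

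In troponin T, Tnnt1 took 0.133%, 0.200% and 0.139% of counts in R193H hearts, against 0.194%, 0.201% and 0.182% in wild type hearts. R193H replicate 2 lay among the wild type hearts and the other R193H hearts below them. The mean share was 0.157% ± 0.037 in R193H hearts and 0.192% ± 0.0097 in wild type hearts (exact permutation p = 0.3). The difference of -0.035 percentage points was -0.056 without R193H replicate 2 and -0.023 without R193H replicate 1. Since Tnnt2 and Tnnt1 were both lower in R193H hearts, the share moved less than the level of Tnnt1 did. The Tnnt3 share was 0.0077% ± 0.00091 in R193H hearts and 0.0068% ± 0.0016 in wild type hearts (exact permutation p = 0.7). In troponin C, Tnnc2 took 0.00278% to 0.00610% in R193H hearts and 0% to 0.00734% in wild type hearts, where 0 counts in wild type replicate 3 allow a share of up to 0.00858% by the limit of 3 counts and 0.0110% by the Wilson bound that is plotted (exact permutation p = 0.8).

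**Figure D4:**
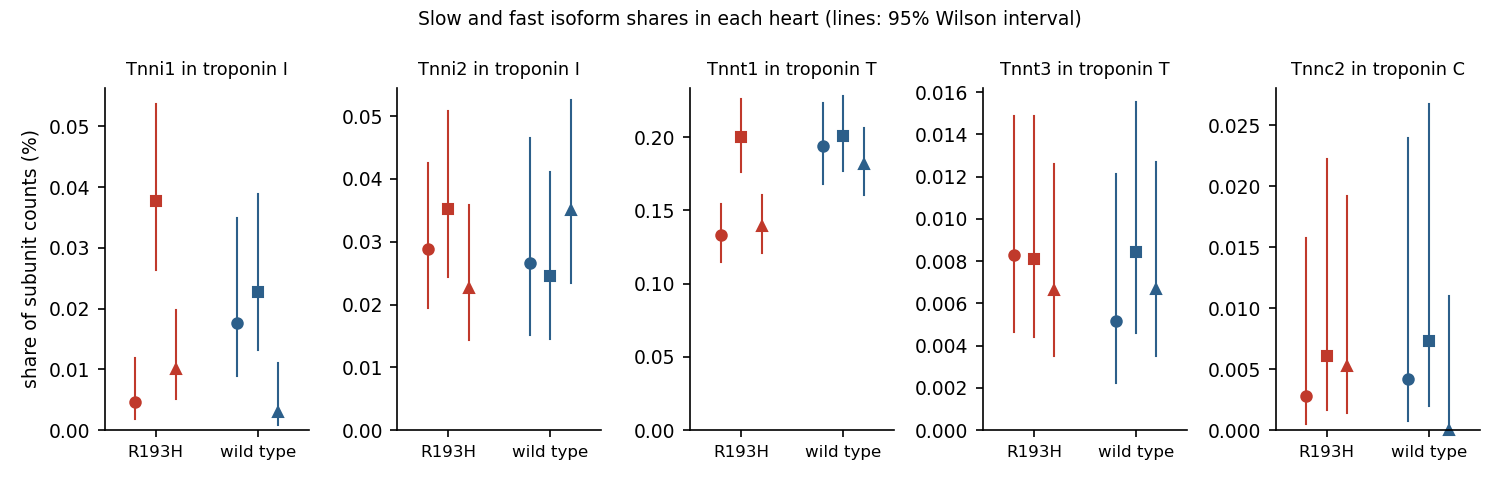
Share of each slow or fast isoform gene in all counts of its subunit, in percent, for each heart, with R193H hearts on the left in red, wild type hearts on the right in blue and lines for the 95% Wilson interval; circles, squares and triangles are replicates 1, 2 and 3. The Tnnt1 share of R193H replicates 1 and 3, 0.133% and 0.139%, is below those of the wild type hearts, and the other shares overlap between genotypes.

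Genes that work with troponin were described from lists, beside all 14370 genes tested, of which 463 were higher and 361 lower in R193H hearts at an unadjusted p under 0.05 and whose median log2 fold change was -0.00036. Of the 18 thin filament partners, all were tested and 0 were called by edgeR (2 at an unadjusted p under 0.05, both lower in R193H hearts), with a median log2 fold change of -0.061. Tpm1, the tropomyosin to which troponin T binds, averaged 7602 ± 290 CPM in R193H hearts and 8701 ± 284 CPM in wild type hearts, a log2 fold change of -0.19 (edgeR adjusted p = 0.816) with groups that did not overlap. Fhod3, a formin that maintains sarcomeric actin, averaged 293 ± 24.7 CPM in R193H hearts and 359 ± 43.3 CPM in wild type hearts, a log2 fold change of -0.29 (edgeR adjusted p = 0.781). Actc1, cardiac actin, averaged 8889 ± 307 CPM in R193H hearts and 8369 ± 482 CPM in wild type hearts, with overlapping groups.

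**Figure D5:**
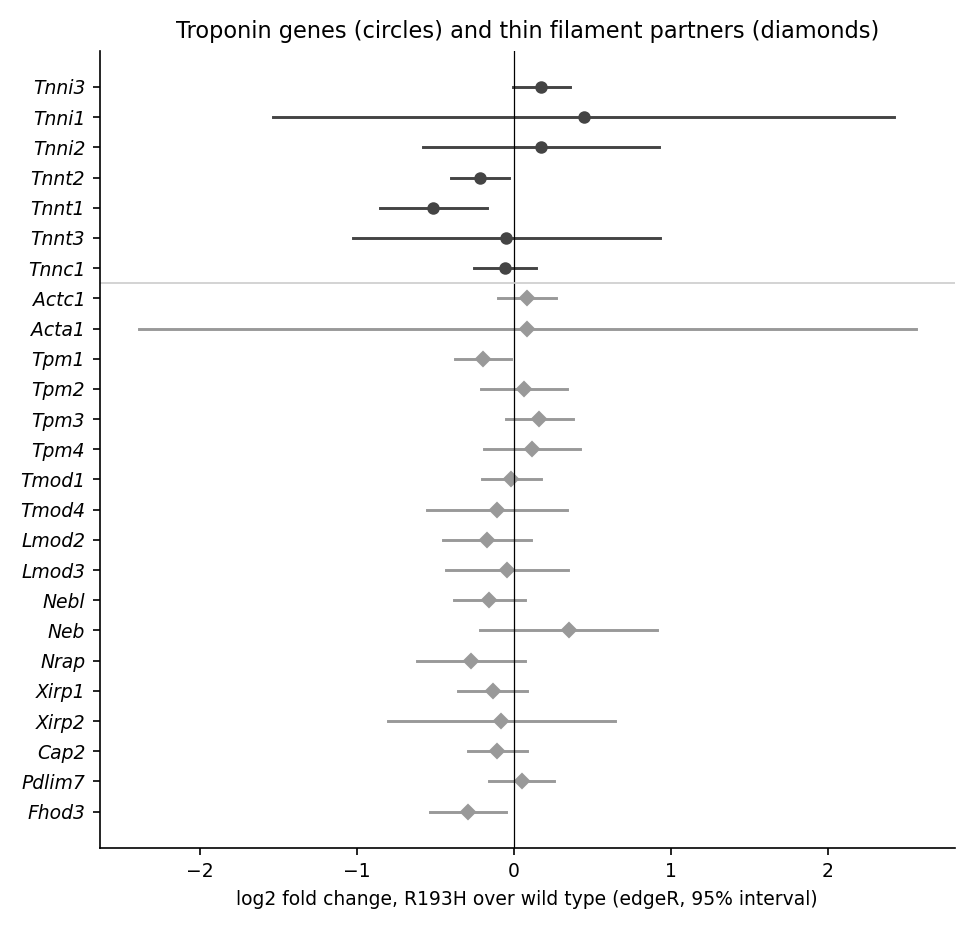
Log2 fold change, R193H over wild type, with the 95% interval of the edgeR fit, for the 7 troponin genes tested (black circles) and 18 thin filament partners (grey diamonds). Tnni3 lies at 0.18 and Tnnt2 at -0.21, and the intervals of Tnnt2, Tnnt1, Tpm1 and Fhod3 do not reach 0.

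On the thick filament, 13 of 14 genes were tested and 0 were called by edgeR. Of these, 12 had a lower mean in R193H hearts, where 7196 of all 14370 genes did, and 6 of them were lower at an unadjusted p under 0.05, where 361 of all genes were. The median log2 fold change was -0.40. The smallest p belonged to Myom1, which encodes the M-band protein myomesin and averaged 901 ± 21.3 CPM in R193H hearts and 1231 ± 122 CPM in wild type hearts (edgeR adjusted p = 0.526). Tnnt2 thus lay on the side of most of these genes, and Tnni3 on the other.

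Of 22 kinases and phosphatases that act on troponin I or are of those families, 20 were tested, 0 were called by edgeR, and 1 was higher and 1 lower at an unadjusted p under 0.05, with a median log2 fold change of -0.017. These were Pak1, at 3.19 ± 0.93 CPM in R193H hearts and 2.08 ± 0.21 CPM in wild type hearts, and Prkce, protein kinase C epsilon, at 4.55 ± 0.78 CPM in R193H hearts and 6.30 ± 1.06 CPM in wild type hearts. Of 12 splicing factors linked to troponin T or other sarcomeric transcripts, 11 were tested and 0 were called by edgeR, with 2 lower at an unadjusted p under 0.05 and a median of -0.067. Those were Rbm24, at 156 ± 6.94 CPM in R193H hearts and 192 ± 13.2 CPM in wild type hearts, and Rbm20, at 5.48 ± 0.31 CPM in R193H hearts and 8.25 ± 2.19 CPM in wild type hearts. Counts per gene do not show the splice forms of Tnnt2.

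Of 15 transcription factors and cofactors of cardiac genes, 14 were tested and 0 were called by edgeR, with 2 lower at an unadjusted p under 0.05 and a median log2 fold change of -0.11. Myocd, myocardin, averaged 75.3 ± 3.56 CPM in R193H hearts and 92.2 ± 2.75 CPM in wild type hearts (log2 fold change -0.29, edgeR adjusted p = 0.704). Gata6 averaged 51.3 ± 4.11 CPM in R193H hearts and 62.4 ± 7.23 CPM in wild type hearts (log2 fold change -0.28, edgeR adjusted p = 0.781).

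The genes most like each cardiac troponin gene over the 6 hearts, by the smallest SD of their log2 ratio among 7625 genes with a mean of at least 10 CPM, were not the other troponin genes. They were Asap3, Atrip, Banf1, Mvp and Rpl30 for Tnni3, with SDs of 0.024 to 0.033. For Tnnt2 they were Asb2, Slc35e1, Kri1, Yap1 and Hrc, with SDs of 0.013 to 0.028, and for Tnnc1 they were Metap1d, Cdc42bpa, Ndufv2, Atp5j and Ppp2r5e, with SDs of 0.013 to 0.025. All of these SDs pool the genotypes and so include any difference between them. They are also the smallest of 7625 over only 6 hearts, so the choice itself makes them low. Whether the named genes follow troponin beyond that was not tested. The named genes had log2 fold changes of 0.14 to 0.19 for Tnni3, -0.22 to -0.18 for Tnnt2 and -0.070 to -0.039 for Tnnc1. The SD of the log2 ratio of Tnni3 to Tnnt2 was 0.22, above the median of 0.173 over all genes set against Tnni3, and Tnnt2 came 5809th among them. Within genotypes it was 0.087 in R193H hearts and 0.030 in wild type hearts, so the pooled value largely restates the difference in this ratio. Over all hearts, Tnnt2 and Tnnc1 were closer, at 0.10, with Tnnc1 in place 1087 among the genes set against Tnnt2. Within genotypes their SD was 0.040 in R193H hearts and 0.086 in wild type hearts.

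Several troponin genes overlap other genes in the GENCODE annotation of GRCm38, and the use of strand in counting is not given in the sources used here. Tnnc1 lies wholly within Nisch on the opposite strand (chr14:31208312-31211729), and Nisch averaged 215 ± 14.5 CPM in R193H hearts and 229 ± 8.99 CPM in wild type hearts, well below Tnnc1. Tnni3 (chr7:4518305-4524229) overlaps Dnaaf3 by 1297 bp on the same strand, and Dnaaf3 had 8.12 ± 1.67 CPM in R193H hearts and 7.21 ± 1.98 CPM in wild type hearts. The shorter RefSeq span of Tnni3, chr7:4518305-4522718, stops before this Dnaaf3 span, which begins at 4522933. Tnnc2 overlaps Ube2c, which had 21 to 61 counts in R193H hearts and 15 to 39 in wild type hearts, more than Tnnc2 itself, so the few Tnnc2 counts are uncertain. Tnnt3, with 5 to 11 counts per heart, overlaps Prr33 by 7936 bp on the opposite strand. Prr33 is not listed under that symbol among the counted genes, so its level is not known and the Tnnt3 counts are uncertain as well. The coding sequences of genes for the same subunit were 68.5% to 71.4% identical, with shared runs of at most 22 bases.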

How the data were processed

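Heart RNA of 6 mice was sequenced, and the authors deposited unnormalized counts, 1 whole number per gene symbol and heart. The submitters' processing notes name HISAT2 2.0.4 and GRCm38; the counting program is not given in the sources used here. Columns were matched to hearts by title, with 0 columns left over, and groups came from the genotype label. Replicate numbers follow the order of listing and pair no hearts.

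The test was edgeR 4.0.16 in R 4.3.3 (filterByExpr, which kept 14370 of 44792 genes, TMM factors, robust quasi-likelihood test, no covariate), with Benjamini-Hochberg adjustment over all genes tested and a threshold of 0.05. The biological coefficient of variation was 15.8%. A heart with 0 counts of a gene allows a level of up to 0.137 to 0.204 CPM (3 counts). Shares and within-heart ratios (0.5 added to each count on the log2 scale) were compared by exact permutation over hearts. Lengths are those of the longest protein-coding GENCODE transcript, in kilobases. No hearts agreed within sampling noise, so each counted as a sample of its own. Scripts were tested on simulated data.

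Members and gene lists were chosen with earlier results of these data known. Named are all members and, of each list described, up to 3 genes by smallest p, or genes that define a tissue; Actc1, Mybpc2, atrial markers other than the first 3 and overlapping genes were named after their values were seen. Alternatives were other scalings and filters, DESeq2 1.42.0, limma-voom (limma 3.58.1), a non-robust fit and each heart left out. Ratio fits in limma and ratios to ventricular genes with a heart left out were added after seeing the data. The ratios to ventricular genes over all hearts were not among the planned comparisons either.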

Additional observations from a re-analysis of the deposited data

How the results depend on the processing

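The number of troponin genes called was 0 under every alternative run. Tnni3 stayed higher and Tnnt2 and Tnnt1 lower in R193H hearts under all of them, none past the threshold. The number of genes called among all tested, 1, was 0 with mitochondrial genes left out, 38 with no filter, 40 with DESeq2 and 3 to 21 with a heart left out; the cause was not tested. With library totals, which shifted the median of all genes to 0.13 on the log2 scale, Tnni3 was 0.30, Tnnt2 -0.088 and Tnnt1 -0.38, while Tnnc1 (0.067), Tnnt3 (0.076) and the summed cardiac CPM (429) turned direction. With a heart left out, the log2 fold change spanned -0.11 to 0.0021 for Tnnc1 (above 0 without R193H replicate 2), -0.75 to 1.04 for Tnni1 (below 0 without R193H replicate 2 or wild type replicate 3), 0.037 to 0.34 for Tnni2 and -0.20 to 0.16 for Tnnt3, and the ratio of Tnnc1 to ventricular genes, added after seeing the data, spanned -0.019 to 0.064. The differences in share spanned -0.00716 to 0.00937 percentage points for Tnni1, -0.00299 to 0.00334 for Tnni2, -0.056 to -0.023 for Tnnt1 (-0.056, with groups apart, without R193H replicate 2), 0.00012 to 0.00175 for Tnnt3 and -0.00107 to 0.00260 for Tnnc2. The summed cardiac CPM differed by -739 to -278. No paired analysis was possible because the labels give the hearts no number, litter or day that pairs them. Tnni1, Tnni2, Tnnt3 and Tnnc2 had 0 to 30 counts per heart, which limits their precision; for Tnni1, hearts also differed by more than counting error.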
